A study of Mus musculus with 4 samples.

Results

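The genes described here are 36 members of the PPAR and fatty acid oxidation programme, followed in total thymocytes of mice with reduced Atg16l1 function. They were chosen by symbol, as receptors of the PPAR and RXR families, enzymes of beta oxidation, acyl-CoA synthetases and genes of lipid storage, and were read from the brightest array probe set that names the gene, by mean signal over the 4 arrays. Of the 36, 34 had such a probe set among 18193 genes named by the arrays, and 31 were bright enough to be tested among 10232 genes. Acsl1 and Ucp2 were not analysed here, and Ppara, Pparg and Pdk4 fell below the limit for testing, the median of all probe set means.

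The study compared 2 mice hypomorphic for Atg16l1, an allele that lowers the gene's function without removing it, with 2 control mice, described in the labels as wild-type, all aged 7 weeks. The Atg16l1 protein works in autophagy, where it helps to couple LC3 proteins to lipid on the growing autophagosome. Each animal gave 1 Affymetrix array of unsorted thymus cells, the animals were independent, and each group held 1 male and 1 female that the labels do not tie to arrays. The labels name neither the strain nor how the allele was made, and no treatment of either group.

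PPARs are nuclear receptors that bind DNA as pairs with an RXR receptor and are activated by fatty acids and their derivatives. Their targets take up fatty acids, bind them to coenzyme A, carry them into mitochondria or peroxisomes and break them down by beta oxidation, a cycle of dehydrogenation, hydration, dehydrogenation and thiolysis. PPARA is known for oxidation in liver and heart, PPARG for fat storage in adipocytes and for roles in macrophages, and PPARD is found in most tissues.

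Median deposited signals were 38.4 and 27.4 on the hypomorph arrays (replicates 1 and 2), against 23.5 and 27.4 on the control arrays, so each array was centred on a common median on the log2 scale. Signals quoted below are as deposited and carry these differences in brightness, while log2 values and changes are centred. After centring, the 10232 tested genes still had a median log2 change of 0.21 in hypomorph over control thymocytes. Changes are therefore also given relative to that median. The shift varied with brightness. With the tested genes in 10 groups by mean log2 signal, the median change was 0.013 in the dimmest group. It was 0.26 in the 7th group and 0.19 in the brightest. Relative values use the common median, so those of the dimmest genes read lower than against genes of like brightness. Atg16l1, which checks the labels, had signals of 108 and 70.8 in hypomorph thymocytes, against 184 and 241 in controls (log2 change -1.57 ± 0.18 SE, adjusted p 0.0142 in limma). Both hypomorph arrays were the lower ones, and the change passed the threshold in this fit but not without the variance trend (adjusted p 0.274), without centring (0.114), without the filter (0.0596) or when control replicate 1 (0.0751) or 2 (0.0893) was left out. Of 11 measured thymocyte markers the brightest, Rag1, was at 8417 and 6903 in hypomorphs and 5620 and 7411 in controls. The dimmest, Ptcra, was at 343 and 224 in hypomorphs and 186 and 183 in controls.

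No member rose or fell past the threshold in hypomorph thymocytes. Of the 31 tested members, 0 had an adjusted p under 0.05 in limma, where 0.0489% of all tested genes did (5 of 10232, 0.0293% with higher values) and 0.0622% of all tested probe sets. An unadjusted p under 0.05 was found for 5 members, all with higher values in hypomorphs: Fabp5, Etfa, Acadm, Hadh and Acads. That was 16.1% of the tested members, against 18.3% of all tested genes. The share moved with the setting, for all genes as well. With quantile normalization 1 member, Fabp5, had such a p (3.23%, beside 6.11% of tested genes in either direction under that setting). Without hypomorph replicate 2 there were 3 (9.68% beside 10.1%), without control replicate 1 there were 2 (6.45% beside 8.47%), and without control replicate 2 there were 10 (32.3% beside 21.2%). A log2 change above 0 was found for 27 members, or 87.1%, and for 82.6% of all tested genes. The members' median log2 change was 0.26, or 0.05 above the median of the tested genes, and 18 members lay above that median and 13 below it. Between replicate arrays the members' median, taken relative to all tested genes, had a pooled SD of 0.046 (n = 2 per group), about as large as that difference. Without control replicate 1 the relative median was -0.01.

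Nor did the members stand apart in how cleanly the arrays separated. After centring, both hypomorph values lay above both control values for 16 members, or 51.6%, and the same held for 51.7% of all tested genes. The reverse was seen for 1 member, Ppard, or 3.23%, beside 4.93% of all tested genes. Control replicate 1 was the lowest array for 21 of the 31 members, and it was also the lowest for 55.9% of all tested genes. Hypomorph replicate 2 was the highest array for 18 members and for 53.8% of tested genes. The tested members ran from dim to bright, with percentiles among tested genes by mean log2 signal from 3.27 for Rxra to 90.7 for Hadhb. Their median percentile was 60.2, and 16 of the 31 lay above the median brightness of the tested genes.

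**Figure D1:**
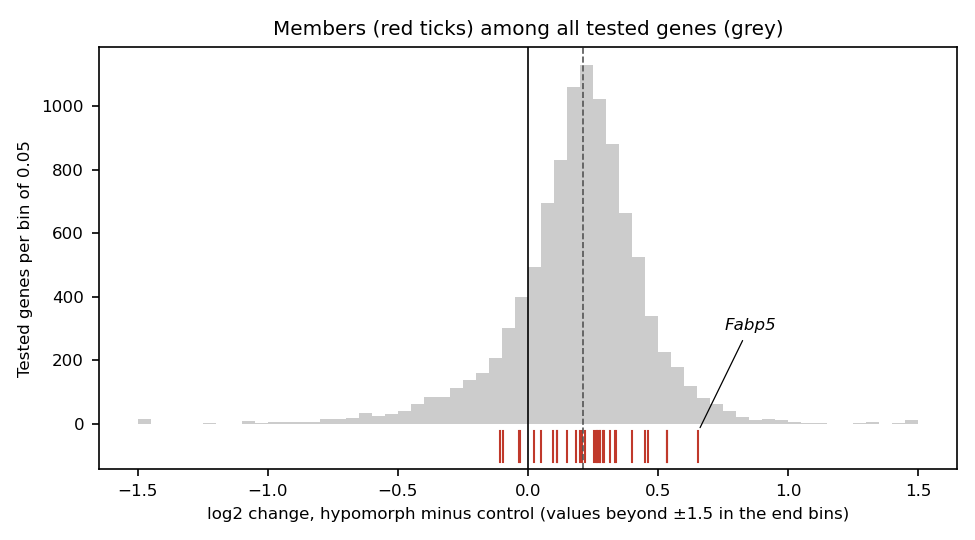
Histogram of log2 changes, hypomorph minus control, over the 10232 tested genes (grey bars, genes per bin, x axis in log2 units), with the 31 tested members as red ticks under the axis, a solid line at 0 and a dashed line at the median of the tested genes, 0.21. The ticks lie within the bulk of the grey distribution, from -0.11 for Ppard to 0.66 for Fabp5.

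Among the receptors, Ppard and Rxrb had the brightest probe sets. A second Ppard probe set lay near the floor, at 2.60 and 1.37 in hypomorphs and 1.06 and 0.987 in controls, and was not tested. On its brighter probe set Ppard had signals of 116 and 81.6 in hypomorph thymocytes, against 75.8 and 90.8 in controls. The groups overlapped as deposited, and after centring the hypomorph values were slightly lower (log2 mean 6.47 ± 0.025 against 6.58 ± 0.037, SD, n = 2 each). Its log2 change was -0.11, with a 95% confidence interval of -0.56 to 0.35 and an adjusted p of 0.806. Rxrb, the RXR form found in most cells, had signals of 527 and 489 in hypomorphs and 292 and 431 in controls (log2 change 0.18, interval -0.19 to 0.56, adjusted p 0.584). Without centring, that of Ppard was 0.22, and with quantile normalization that of Rxrb was -0.05, so neither has a settled direction.

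Ppara was dim, under the limit for testing, and Pparg was near the floor of the arrays. Ppara had signals of 23.8 and 12.7 in hypomorph thymocytes, against 22.3 and 21.1 in controls, and its other 2 probe sets stayed under 10. Pparg, on its single probe set, had signals of 3.55 and 4.88 in hypomorphs and 2.74 and 10.4 in controls. After centring, both hypomorph values of Ppara lay below both control values, while those of Pparg overlapped with the controls. Neither gene was tested.

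Rxra differed more between the control animals than between the groups. Its signals were 33.6 and 50.8 in hypomorph thymocytes, against 7.15 and 58.6 in controls. The hypomorph values fell between those of the control animals. The log2 change was 0.54 with an interval of -0.92 to 1.99 (adjusted p 0.686), and leaving out control replicate 1 gave -0.71, whereas leaving out control replicate 2 gave 1.78. Of 7 measured granulocyte markers 5 (S100a8, S100a9, Camp, Ltf and Ngp) ordered the arrays in the same way, and Elane and Mpo did not. Among the markers of other cell types, the dim adipocyte gene Fabp4 also had this order. How many of all tested genes had it was not counted. S100a8, a calcium-binding protein of neutrophils, had signals of 1401 and 1760 in hypomorphs and 263 and 2723 in controls. The 7 markers summed to 2200 and 3672 in hypomorphs and 642 and 5774 in controls after scaling to a common median, none of them at 0. The part of granulocytes in the Rxra values was not tested. In unsorted cells, more cells of a type and more RNA per cell cannot be told apart. Another, dimmer Rxra probe set had signals of 39.6 and 24.7 in hypomorphs and 18.0 and 28.9 in controls, which is not that order.

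**Figure D2:**
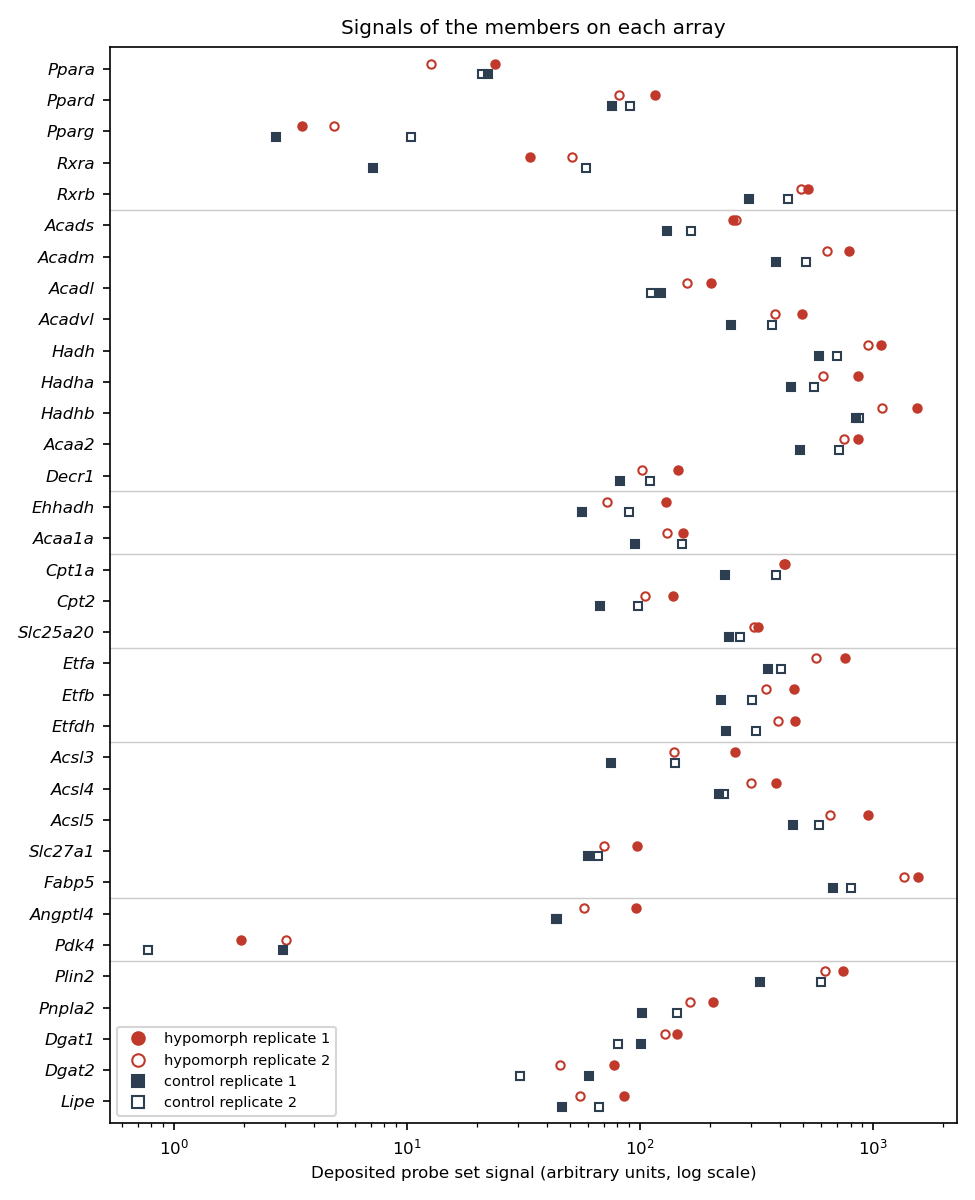
Deposited signal of each member's brightest probe set (x axis, arbitrary units, log scale) on every array, with hypomorph arrays as red circles above control arrays as dark squares, replicate 1 filled and replicate 2 open, and grey lines between roles. Ppara, Pparg and Pdk4 lie at or under 23.8, Rxra spreads widely between the control arrays, and in the Fabp5 row both hypomorph symbols lie to the right of both control symbols.

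Fabp5 had the smallest p among the members. It encodes a small protein that binds fatty acids in the cytosol and has been shown in cultured cells to bring ligands to PPARD. Its signals were 1565 and 1357 in hypomorph thymocytes, against 671 and 807 in controls. Both hypomorph arrays were above both control arrays, as deposited and after centring (log2 mean 10.35 ± 0.18 against 9.69 ± 0.046, SD, n = 2 each). The log2 change was 0.66 ± 0.14 (SE, interval 0.35 to 0.96), a 1.57-fold higher level, with an unadjusted p of 0.000594 and an adjusted p of 0.159 in limma. Relative to the tested genes the change was 0.44.

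A second Fabp5 probe set gave signals of 495 and 346 in hypomorphs, against 189 and 213 in controls. Its log2 change of 0.71 (adjusted p 0.148) was of the same size as that of the brighter one. The call for the brighter probe set depended on the arrays used: without hypomorph replicate 1, which leaves 1 hypomorph array, it reached an adjusted p of 0.0116 at a log2 change of 0.78. In the other 13 alternatives the adjusted p ranged from 0.0625, with the filter at the 75th percentile, to 0.625, with quantile normalization, where the log2 change was 0.42. The 8 macrophage markers summed to 906 and 767 in hypomorphs and 926 and 1070 in controls after scaling, none at 0. Their part in the Fabp5 values was not tested.

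The acyl-CoA synthetases, which couple long-chain fatty acids to coenzyme A, had positive changes without a call. Acsl3, an enzyme of lipid droplets and the endoplasmic reticulum, had signals of 255 and 141 in hypomorph thymocytes, against 75.3 and 141 in controls. Hypomorph replicate 2 and control replicate 2 were level as deposited, and after centring too (log2 change 0.53, adjusted p 0.310). Without control replicate 1 the log2 change was 0.19. Acsl5, a mitochondrial form, had signals of 950 and 650 in hypomorphs and 455 and 586 in controls, a log2 change of 0.28 (adjusted p 0.328), or 0.06 relative to the tested genes. Acsl4, which prefers arachidonic acid, was at 0.27 (adjusted p 0.380), and the fatty acid transporter Slc27a1 at 0.05 (adjusted p 0.924). Of this role's 5 tested genes, Fabp5 included, 4 lay above the median of the tested genes, and none passed.

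The 3 genes that pass electrons from acyl-CoA dehydrogenases to ubiquinone all lay above the median of the tested genes, and none passed. Etfa encodes the alpha subunit of the electron transfer flavoprotein, Etfb its beta subunit and Etfdh the oxidoreductase that hands the electrons on. Etfa had signals of 754 and 570 in hypomorph thymocytes, against 355 and 403 in controls. The arrays of each group agreed closely after centring (log2 mean 9.20 ± 0.037 against 8.74 ± 0.014, SD, n = 2 each), and the log2 change was 0.46 ± 0.13 (SE, interval 0.17 to 0.75, unadjusted p 0.00485, adjusted p 0.231). Etfb had signals of 458 and 347 in hypomorphs and 223 and 301 in controls (log2 change 0.29, adjusted p 0.343). Etfdh had signals of 461 and 391 in hypomorphs and 234 and 314 in controls (log2 change 0.32, adjusted p 0.328). Relative to the tested genes the 3 changes were 0.25, 0.08 and 0.10, in the order just given.

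The 9 mitochondrial beta oxidation genes had a median log2 change of 0.27, or 0.06 relative to the tested genes, with 5 above that median, 4 below it and none past the threshold. The acyl-CoA dehydrogenases take the first step, each on chains of a different length. The short-chain gene Acads had signals of 251 and 258 in hypomorph thymocytes, against 131 and 166 in controls (log2 change 0.45, adjusted p 0.295). The medium-chain gene Acadm had 785 and 636 in hypomorphs and 384 and 515 in controls (0.34, adjusted p 0.291). In both, each hypomorph array exceeded each control array after centring. The long-chain gene Acadl was at 0.28 and the very-long-chain gene Acadvl at 0.20, with adjusted p-values of 0.455 and 0.522. The changes thus ran down with chain length, but the confidence intervals of the 4 genes overlapped widely, from 0.03 to 0.87 for Acads and from -0.15 to 0.55 for Acadvl, and the differences between them were not tested.

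The later steps differed as little. Hadhb, the beta subunit of the trifunctional protein, had signals of 1542 and 1095 in hypomorph thymocytes, against 848 and 867 in controls (log2 change 0.27, adjusted p 0.328). Hadha, its alpha subunit, had 858 and 612 in hypomorphs and 446 and 559 in controls (0.21, interval -0.08 to 0.50, adjusted p 0.427). The change of Hadha equalled the median of all tested genes to 2 decimals. Hadh, the dehydrogenase for medium and short chains, had 1076 and 952 in hypomorphs and 585 and 697 in controls (0.33, adjusted p 0.291), and 2 further probe sets of the gene were at 0.26 and 0.70.

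Acaa2, a mitochondrial thiolase of beta oxidation, had no settled direction on its brightest probe set. Its signals were 859 and 748 in hypomorph thymocytes, against 485 and 717 in controls. Control replicate 1 was the lowest array, and after centring the groups overlapped (log2 change 0.11, adjusted p 0.731). Its other 2 probe sets were at 0.35 and 0.45, each with both hypomorph arrays above both control arrays and neither past the threshold (adjusted p 0.291 and 0.276). Decr1, which handles unsaturated fatty acids, was at 0.03 (interval -0.41 to 0.46).

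**Figure D3:**
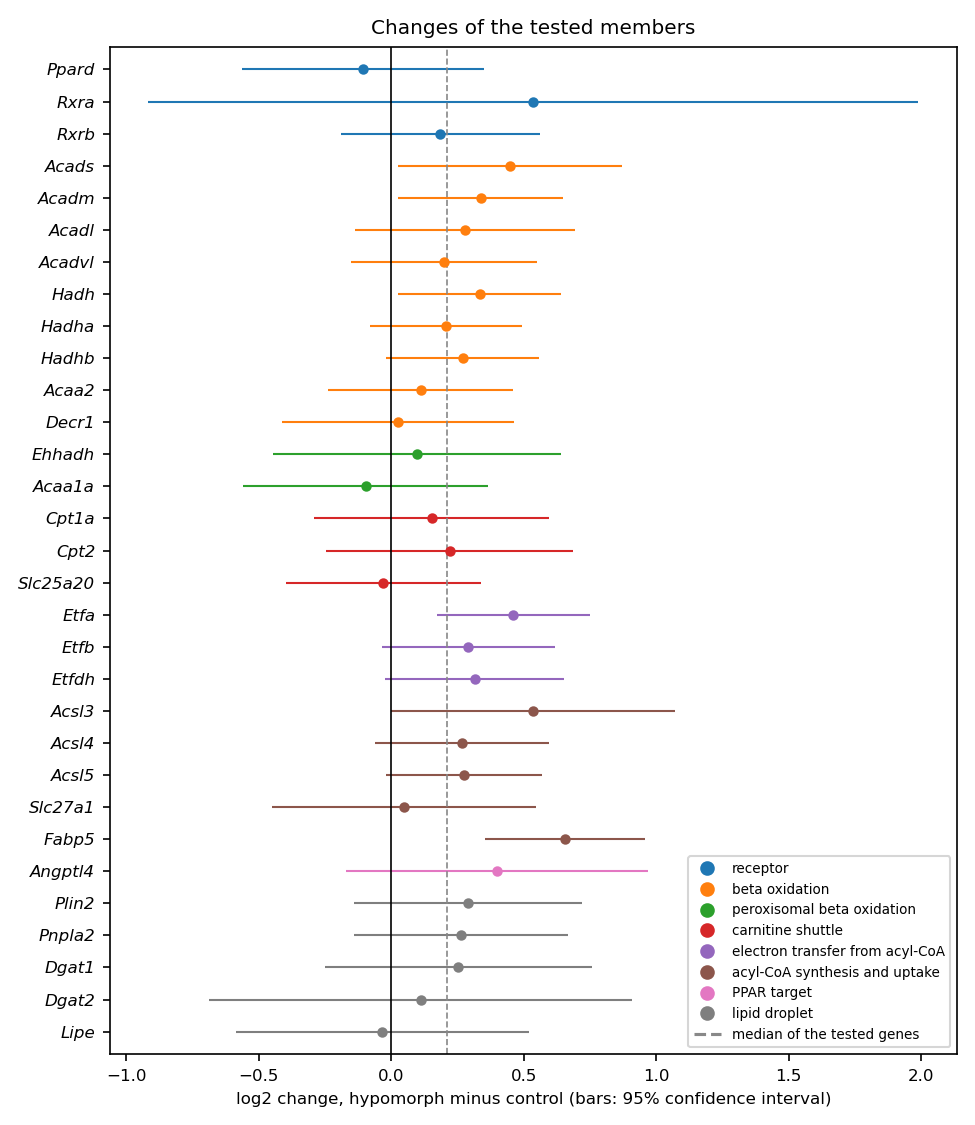
Log2 change, hypomorph minus control, of the 31 tested members (x axis, points) with 95% confidence intervals (bars), coloured by role, with a solid line at 0 and a dashed line at the median of the tested genes, 0.21. Fabp5 is the member whose interval (0.35 to 0.96) lies wholly above the dashed line, and the interval of Rxra is the widest.

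The carnitine shuttle genes, which bring fatty acids into mitochondria, had a median log2 change of 0.15, or -0.06 relative to the tested genes, and none passed. Cpt1a, the carnitine palmitoyltransferase that controls entry into mitochondria, had signals of 416 and 419 in hypomorph thymocytes, against 232 and 383 in controls. Control replicate 1 was the lowest, and control replicate 2 lay near the hypomorph arrays (log2 change 0.15, interval -0.29 to 0.60, adjusted p 0.709). Cpt2, the inner-membrane transferase, was at 0.22, and Slc25a20, the carrier that exchanges acylcarnitine for carnitine, at -0.03, with adjusted p-values of 0.598 and 0.940. The genes of peroxisomal beta oxidation, Ehhadh, a bifunctional enzyme, and Acaa1a, a thiolase, were at 0.10 and -0.10, with adjusted p-values of 0.856 and 0.827. Another Acaa1a probe set was at -0.33, and those that name Acaa1a together with its close relative Acaa1b were left out.

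Of the PPAR targets, Angptl4, a secreted inhibitor of lipoprotein lipase that PPARs induce in several tissues, had signals of 96.3 and 57.2 in hypomorph thymocytes, against 44.2 and 43.7 in controls. Both hypomorph arrays were the higher ones, and the log2 change of 0.40 (interval -0.17 to 0.97) had an adjusted p of 0.437. Pdk4, a kinase that turns off pyruvate dehydrogenase and a frequent PPAR target, had signals of 1.95 and 3.03 in hypomorphs and 2.93 and 0.777 in controls, near the floor, and was not tested.

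The lipid droplet genes did not change past the threshold. Plin2, the coat protein of droplets in most cells, had signals of 746 and 620 in hypomorph thymocytes, against 328 and 597 in controls. As with Cpt1a, control replicate 2 lay close to the hypomorph arrays and control replicate 1 was low (log2 change 0.29, interval -0.14 to 0.72, adjusted p 0.455). Pnpla2, the lipase that starts the breakdown of triglycerides, was at 0.26, and Dgat1 and Dgat2, which make triglycerides, were at 0.25 and 0.11. Lipe, the hormone-sensitive lipase, was at -0.03. The adjusted p-values of these 4 were 0.470 to 0.956. Another tested probe set of Dgat1 was at -0.13 and another of Dgat2 at -0.24, so neither gene had a direction shared by its probe sets. Adipocyte markers were dim on all arrays, with Adipoq at 15.3 and 5.89 in hypomorphs and 13.6 and 20.3 in controls, and the 6 measured markers, none at 0, summed to 89.9 and 76.5 in hypomorphs and 62.0 and 110 in controls after scaling.

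Several members could be read on more than 1 probe set. Among 18 further tested probe sets of 13 members, none was called, 12 had the same sign as the brightest one, and 9 lay on its side of the median of the tested genes. Those of Fabp5 were at 0.66 and 0.71, those of Hadhb at 0.27, 0.33 and -0.10, and those of Acsl3 at 0.53 and 0.63. A dimmer probe set had the opposite sign for Dgat1 (-0.13), Dgat2 (-0.24) and Cpt2 (-0.05). The same held for Slc25a20 (0.16) and for Acsl4 (-0.11), while a further Acsl4 probe set was at 0.20.

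**Figure D4:**
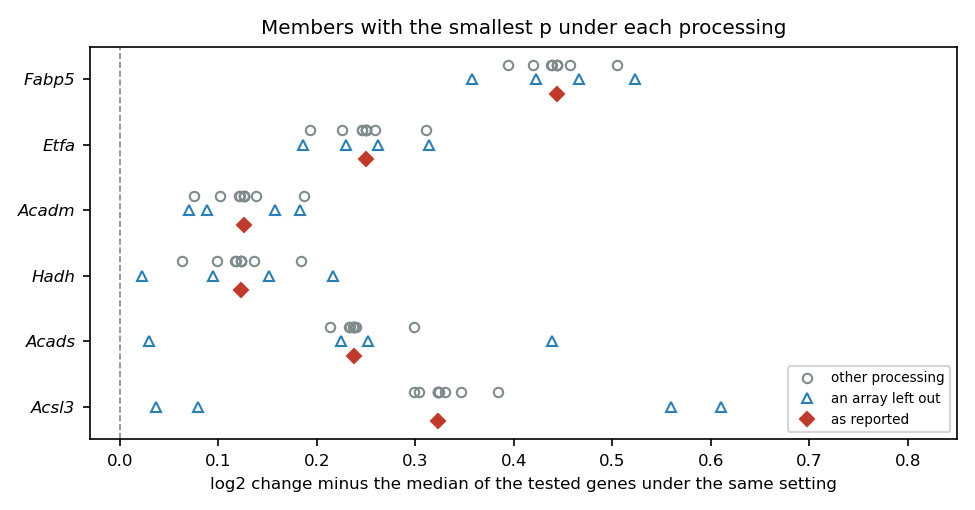
Log2 change minus the median of the tested genes under the same setting (x axis) for the 6 members with the smallest p, as reported (red diamonds), with an array left out (blue triangles) and with other processing (grey circles). All values shown lie above 0, those of Fabp5 between 0.36 and 0.52, while Hadh, Acads and Acsl3 each have a blue triangle close to 0.

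The promoters of the members were read for the element that PPAR and RXR bind together, which is 2 copies of the half-site AGGTCA in the same direction with any 1 base between them. Windows from 250 bases before to 50 after the start of transcription, from RefSeq on GRCm38.p6, were at hand for 30 of the 36 members (38 windows). No window was used for Acaa2, Decr1, Fabp5, Angptl4, Dgat1 and Dgat2. On either strand, 0 of the 38 windows held the exact element, as did 0.0396% of all 32851 windows. With up to 2 mismatches outside the spacer it was found in 4 windows, or 10.5%, against 3.86% of all windows. By gene the shares were 13.3% of the 30 members and 4.4% of all genes. The member share rests on 4 genes, and the difference was not tested. Elements outside these windows were not looked for. A single half-site AGGTCA, which lies within the exact element, was present in 18.4% of the members' windows and 16.3% of all windows. The 4 matches are shown because they are the closest to the element among the members, read on the strand that gives AGGTCA first, with the half-sites in capitals.
Rxra: TGGTCAtAGGCCA
Slc25a20: AGGTGAaAGGTCG
Etfa: AGGGCAaAGGTAA
Plin2: AGGTCAgGGGTCC
None of these 4 genes was called, and their log2 changes were 0.54, -0.03, 0.46 and 0.29 in that order. The Rxra match lay 75 to 63 bases before the start in chr2:27709042-27709341, and that of Plin2 225 to 213 bases before it in chr4:86670010-86670309 (minus strand). The Slc25a20 match lay 7 to 19 bases after the start in chr9:108661886-108662185. A match describes the letters, not binding. The window of Etfa, the member with the second smallest p, lies at chr9:55512194-55512493 on the minus strand and has its match, in capitals and here on the opposite strand, 77 to 65 bases before the start.
Etfa: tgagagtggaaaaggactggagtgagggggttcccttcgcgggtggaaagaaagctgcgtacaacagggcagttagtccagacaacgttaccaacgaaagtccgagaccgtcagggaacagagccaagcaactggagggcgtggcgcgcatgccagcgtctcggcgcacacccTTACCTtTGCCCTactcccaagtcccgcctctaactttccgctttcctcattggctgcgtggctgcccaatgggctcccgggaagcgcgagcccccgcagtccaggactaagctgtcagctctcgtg

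No gene of the wider pathway passed the threshold. Of 103 further genes of PPAR signalling, fatty acid oxidation and lipid storage, 56 were tested and none was called. An unadjusted p under 0.05 was found for 11, 10 of them with higher values in hypomorphs (19.2% of all tested genes had such a p in either direction). Of the 11, 7 were among the 16 other mitochondrial oxidation genes, all higher, beside 18.3% of all tested genes in that direction. The peroxisomal genes held 1, the uptake and binding genes 1, the other PPAR targets 2 and the remaining roles 0. Differences between roles were not tested. The median log2 change of the 56 genes was 0.18, or -0.03 relative to the tested genes. By role, the relative median was 0.11 for 16 other mitochondrial oxidation genes, 0.03 for 13 peroxisomal genes, -0.05 for 3 uptake and binding genes, -0.19 for 9 receptor partners and coregulators, -0.22 for 4 other PPAR targets, and -0.25 for 11 other lipid droplet and triglyceride genes. These medians were not adjusted for brightness, with which the shift of all tested genes varied. Several of the lipid droplet genes, such as G0s2, were dim.

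Acadsb, which encodes the dehydrogenase for short branched-chain acyl-CoA in isoleucine breakdown, had the smallest p of these. Its signals were 72.2 and 64.6 in hypomorph thymocytes, against 18.7 and 21.6 in controls. The groups were well apart, yet the log2 change of 1.33 ± 0.30 (SE, interval 0.66 to 2.00) did not pass, with an adjusted p of 0.186. Crat, which moves acetyl groups between carnitine and coenzyme A, was at 0.66 (adjusted p 0.249), and the peroxisomal catalase gene Cat at 0.30 (adjusted p 0.303). The fatty acid transporter Slc27a4 was at 0.50 and the acyltransferase Gpam, which starts triglyceride synthesis, at 0.40, with adjusted p-values of 0.295 and 0.316. The acyl-CoA binding protein Dbi was at 0.16 and the coactivators Ncoa1 and Ncoa2 at 0.30 and 0.25, with adjusted p-values of 0.344 to 0.536.

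Other known PPAR targets did not move one way. Acot2, a mitochondrial acyl-CoA thioesterase, had signals of 167 and 108 in hypomorph thymocytes, against 60.6 and 65.2 in controls (log2 change 0.74, adjusted p 0.229), and a dimmer probe set was at 0.24. Creb3l3, a membrane-bound transcription factor known from liver, had signals of 68.7 and 8.0 in hypomorphs and 61.3 and 63.6 in controls. Its log2 change of -1.59 (adjusted p 0.265) came from hypomorph replicate 2: without that array it was -0.42 (adjusted p 0.610), and without hypomorph replicate 1 it was -2.75 (adjusted p 0.000220). Pex11a, which acts in peroxisome division, was at -0.79 with dim signals of 20.7 and 25.6 in hypomorphs and 26.6 and 40.1 in controls (adjusted p 0.324), and G0s2, an inhibitor of Pnpla2, was at -0.41 (adjusted p 0.488). Of the 14 other uptake and binding genes 3 were tested, since Cd36, Lpl and the Fabp1 to Fabp4 and Fabp7 genes were among those too dim.

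**Figure D5:**
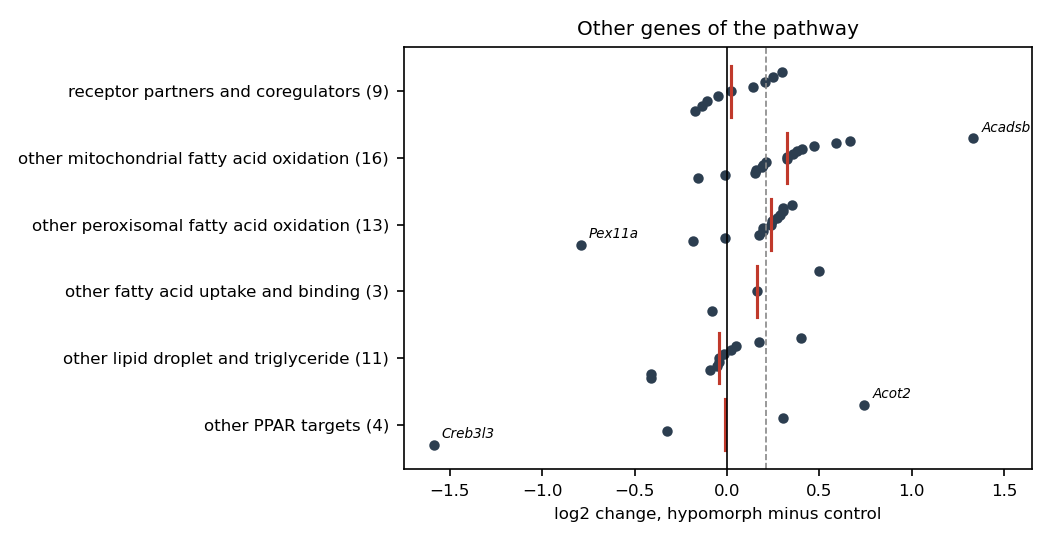
Log2 change, hypomorph minus control, of 56 tested genes of the pathway outside the 36 members (x axis, points), by role with the number of genes in brackets, red bars at the role medians, a solid line at 0 and a dashed line at the median of the tested genes, 0.21. Acadsb (1.33) and Creb3l3 (-1.59) are the outermost points, and the lipid droplet genes lie mostly to the left of the dashed line.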

How the data were processed

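Biotin-labelled thymocyte RNA was hybridised to 1 Affymetrix array per animal. As deposited, the values are probe set intensities (signals, not log-transformed), and GCOS is the software named per the submitters' processing notes. The sources used here do not state its version or scaling. Of 45101 probe sets, 64 controls were left out, and genes were named from probe sets with 1 symbol in the platform annotation. To each signal 2.29 was added (the 10th percentile over the 4 arrays) before log2 was taken, which understates changes of dim genes. Arrays were centred on the common median because their medians spanned 0.66. The 22519 probe sets with a mean at or above the median were tested with limma 3.58.1 in R 4.3.3 (variance trend, no covariates, two-sided), with Benjamini-Hochberg adjustment over all of them and a threshold of 0.05. The procedure was tested on simulated data with independent noise and no array-wide shift. Its pass rule for detection covered changes larger than those of any member. It therefore does not tell how often changes of the members' size would be called.

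Intervals are 95% confidence intervals of limma's moderated test. With 2 arrays in each group an exact permutation p could not be under 0.333, and the number of arrays limits every precision. The members and lists were chosen with earlier results of these data known. Signals of every array are given for the receptors, the 10 other members with the smallest p and the 5 brightest, and for Hadha, Cpt1a, Angptl4, Plin2 and Pdk4, chosen after their values were seen. Of the wider pathway, the 2 genes per role with the smallest p are named. Alternatives changed normalization, pseudocount, filter, variance model, replicate block, probe set choice and the arrays included.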

Additional observations from a re-analysis of the deposited data

How the results depend on the processing

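The count of called members stayed at 0 in 13 of 14 alternatives and was 1, Fabp5, without hypomorph replicate 1 (range 0 to 1 over arrays left out). The count of called pathway genes was likewise 0 to 1, with Creb3l3 called without that array. With 1 hypomorph array such a fit takes its spread from the controls. The members' median change relative to the tested genes was 0.05, and ranged from -0.011 to 0.092 when single arrays were left out. Over all probe sets the number called was 14. It was 4 under quantile normalization, 7 when arrays were centred on the tested probe sets, 84 without centring, 4 without the filter on dim probe sets, 0 in limma without the variance trend (2492 at an unadjusted p under 0.05), 9 with the replicate block, and 8 to 340 when single arrays were left out. The replicate block called no member. The shared replicate numbers are not known to pair the arrays. Deviations of the replicate 1 arrays from their group means correlated at 0.082 across probe sets. Such a low value cannot exclude a pairing that touches few genes. Changes under the alternatives were followed for the tested receptors, the other members with the smallest p and the brightest members. Most of these were thus picked for a small p in the main fit, which favours a stable sign. Of their 194 values, 187 kept their sign. Members with the smallest changes, such as Decr1, Slc25a20 and Lipe, were not followed, so their signs may be less stable. The exceptions were Ppard without centring (0.22), Rxra (-0.71 to 1.78 when single arrays were left out), Rxrb under quantile normalization (-0.049) and Acaa2. Acaa2 was at -0.14 under quantile normalization, -0.062 when centred on the tested probe sets, and -0.068 to 0.29 when single arrays were left out. Of the pathway genes, only those named for the smallest p of their role were followed. Among these, Dbi was at -0.087 under quantile normalization and -0.013 when centred on the tested probe sets. The cause of these shifts was not tested. Dim signals limit what can be said of Ppara, Pparg, Rxra and Pdk4.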
